A study of Drosophila melanogaster with 9 samples.

Results

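The genes described here encode proteins of the *Drosophila* sperm tail and belong to 2 small families. The Mst(3)CGP family comprises *Mst84Da*, *Mst84Db*, *Mst84Dc*, *Mst84Dd*, *Mst87F*, *Mst98Ca* and *Mst98Cb*, and the don juan pair comprises *dj* and *djl*. Members were chosen by name, through the gene symbol that the array annotation gives each probe set with synonyms resolved, and not by any measured value. All 9 genes were found, each with 1 probe set, among 11981 genes that had a probe set of a single symbol. Total RNA from hand-dissected whole testes was hybridised to Affymetrix *Drosophila* arrays, 3 for each of 3 genotypes. *Nxt1* testes came from w; Nxt1[z2-0488]/Nxt1[DG05102] flies cultured at 25°C, in which one allele is an amino acid substitution with partial function and the other a P-element insertion expected to be null. *aly* testes came from aly[5] red[1] e[1] flies cultured at 27°C. Control testes, normal according to the labels, came from w; tinRNAi/+; bamGal4VP16/+ flies cultured at 29°C, where the bam driver expresses the *tin* hairpin in male germline cells. All flies were dissected within a day of eclosion, and testes were stored frozen until enough had been collected, so that each array holds pooled animals.

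Sperm tail genes of this kind are transcribed in primary spermatocytes, before the meiotic divisions. Their mRNAs are stored without translation and are used days later, when spermatids elongate. The Mst(3)CGP proteins are short, carry repeats of cysteine, glycine and proline, and are laid down in the elongating tail, while Don juan and Don juan-like are basic proteins found along the flagellum of late spermatids. aly is a subunit of tMAC, the testis meiotic arrest complex that activates transcription of many spermatocyte genes. Nxt1 is the partner of the mRNA export receptor Nxf1. Mutants of both genes arrest as mature primary spermatocytes, so the question of the comparison was how far each tail mRNA depends on tMAC and how far on Nxt1.

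A stretch of *djl*, the gene with the largest change from control in *aly* testes among the 9 members, is shown as an example of the genes measured. It is the short intron in its own place in the gene, as given with the supplementary sequences for the study's reporter constructs, into which introns were cloned. It is printed 5′ to 3′ with its exon flanks, and the array values below do not separate mature from unspliced *djl* RNA. The gene lies on chromosome arm 3R. Capitals mark the first GT and the last AG of the 55 base intron, which starts after 13 exon bases and is followed by 10 more.
djl: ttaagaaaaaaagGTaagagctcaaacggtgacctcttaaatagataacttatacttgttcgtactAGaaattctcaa
The intron has a GC content of 36.4%. Where on the mRNA the probes of each probe set lie is not given in the sources used here.

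The values are RMA intensities, which the authors made by correcting background, bringing the arrays to a common distribution and summarising the probes of a probe set. Each test compared mean log2 intensities between genotypes with limma, and a gene passed at an adjusted p under 0.05 over 18769 probe sets. Separate cultures are not mentioned for the 3 arrays of a genotype, so a p-value here reflects spread from array to array, which may be technical, and the small number of arrays limits the precision. Arrays of 1 genotype correlated at 0.99 or above (lowest r = 0.99001, over all probe sets). The *aly* signal was 52.8, 50.8 and 57.5 on the *aly* arrays, against 106.5, 93.4 and 98.0 on the control arrays (log2 difference -0.89, adjusted p = 5.10e-06). The *Nxt1* signal was 808.2, 940.5 and 858.7 on the *Nxt1* arrays, against 344.2, 350.3 and 350.7 on the control arrays, which checks no label because neither allele need remove the mRNA. It was also above control on the *aly* arrays, at 725.7, 1116.3 and 922.7. Genotype cannot be told apart from culture temperature, nor from array batch, since the *Nxt1* arrays were set against existing ones.

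All 9 tail genes were lower in *Nxt1* testes than in control testes, and all 9 were also lower in *aly* testes than in control testes. The same directions and calls were found when arrays were centred on ribosomal protein genes or on *CG3927*, a gene of primary spermatocytes that the study used as its q-RT-PCR control. Both centrings moved every difference from control down, so a gene already below 0 could not change direction. In *Nxt1* testes the 9 genes kept 16.6% to 78.4% of the control level. In *aly* testes the 7 Mst(3)CGP genes kept 16.8% to 65.6%, but *dj* kept 1.12% and *djl* 0.848%. Of all probe sets 24.2% passed as lower in *Nxt1* testes and 20.0% in *aly* testes, and the median log2 difference of the 9 genes was -1.13 in *Nxt1* and -1.10 in *aly* testes, against -0.01 and 0.21 over all probe sets. These background shares depend on the scale of the arrays. In *Nxt1* against control testes 4533 probe sets were lower and 6395 higher on the deposited scale, 14579 and 2104 after ribosomal centring, and 12971 and 3158 after *CG3927* centring. In *aly* against control testes the split was 3756 lower and 8260 higher on the deposited scale, 14266 and 2442 after ribosomal centring, and 13905 and 2681 after *CG3927* centring. Both mutants lack spermatids, and in RNA from whole testes fewer cells of a type and less RNA per cell cannot be told apart. Both mutants were compared with the same 3 control arrays.

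**Figure D1:**
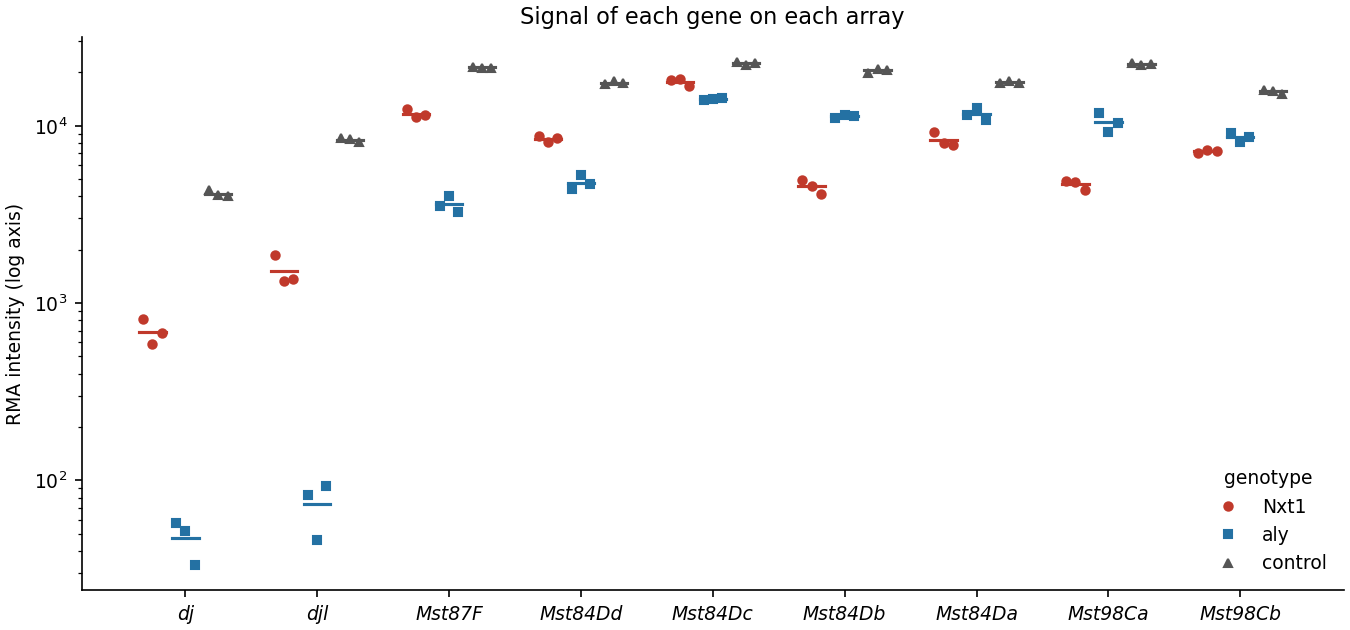
RMA intensity (log axis) of the 9 sperm tail genes on each array, with *Nxt1*, *aly* and control arrays from left to right within each gene, points for single arrays and bars for the mean of 3. Every control array lies above every mutant array of the same gene, and only *dj* and *djl* drop below 100 in *aly* testes.

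The don juan genes showed the widest gap between the mutants. *djl* read 1866, 1334 and 1366 on the *Nxt1* arrays, 82.8, 46.1 and 92.5 on the *aly* arrays and 8543, 8393 and 8066 on the control arrays. The 3 groups of arrays did not overlap. In *Nxt1* testes *djl* was 5.54-fold lower than in control testes (log2 difference -2.47, standard error 0.24, adjusted p = 7.08e-06), whereas in *aly* testes it was 118-fold lower (-6.88, standard error 0.24, adjusted p = 2.09e-09). The *djl* signal was 21.3-fold higher in *Nxt1* than in *aly* testes (log2 difference 4.41, 95% confidence interval 3.88 to 4.94, adjusted p = 1.84e-07).

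*dj*, its neighbour and paralog, followed the same course. *dj* read 810.0, 584 and 678 on the *Nxt1* arrays, 57.7, 51.8 and 33.3 on the *aly* arrays and 4368, 4054 and 3996 on the control arrays. Again no array of one genotype fell among those of another. The *dj* signal was 6.04-fold lower in *Nxt1* testes (log2 difference -2.59, standard error 0.19, adjusted p = 1.02e-06) and 89.3-fold lower in *aly* testes (-6.48, adjusted p = 7.93e-10), and 14.8-fold higher in *Nxt1* than in *aly* testes (3.89, adjusted p = 1.10e-07). These 2 genes were the only members more than 16-fold lower in *aly* testes, a size reached by 5.70% of all probe sets, and no member was 16-fold lower in *Nxt1* testes, where 2.59% of probe sets were. In *aly* testes both signals lay below the median intensity of an array (98.4 to 109.5), and whether they differed from no signal was not tested. A fold change that rests on such values has an uncertain size. The size is uncertain for the Mst(3)CGP genes too, because their control signals lay near the top of the scale, where compression was not tested.

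Within the Mst(3)CGP family, *Mst87F* and *Mst84Dd* were also lower in *aly* than in *Nxt1* testes. *Mst87F*, a gene that stands apart from the other members on the chromosome and is the classical example of a tail mRNA stored until spermatid elongation, read 12439, 11174 and 11539.9 on the *Nxt1* arrays, 3529.5, 4006 and 3263 on the *aly* arrays and 21588, 21285 and 21119 on the control arrays. It was 1.82-fold lower in *Nxt1* testes (log2 difference -0.87, standard error 0.09, adjusted p = 1.29e-05) and 5.95-fold lower in *aly* testes (-2.57, adjusted p = 2.29e-09), and thus 3.26-fold higher in *Nxt1* than in *aly* testes (1.71, adjusted p = 1.57e-07). No other Mst(3)CGP gene was as far below control in *aly* testes. *Mst84Dd* read 8768, 8123.5 and 8483 on the *Nxt1* arrays, 4373, 5263 and 4712 on the *aly* arrays and 17127, 17884 and 17523 on the control arrays. Its level was 48.3% of control in *Nxt1* testes (log2 difference -1.05, adjusted p = 1.72e-06) and 27.2% in *aly* testes (-1.88, adjusted p = 1.44e-08), with the *Nxt1* arrays 1.77-fold above the *aly* arrays (0.83, adjusted p = 2.12e-05). For both genes the 3 groups of arrays did not overlap, with the *aly* arrays lowest and the control arrays highest.

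*Mst84Dc* changed least of all members in *Nxt1* testes. It read 18186, 18250.5 and 16666 on the *Nxt1* arrays, 14055, 14072.5 and 14387 on the *aly* arrays and 22926, 22114 and 22634.5 on the control arrays. It kept 78.4% of the control level in *Nxt1* testes (95% confidence interval 70.4% to 87.4%, log2 difference -0.35, adjusted p = 1.48e-03) and 62.8% in *aly* testes (-0.67, adjusted p = 1.13e-05). The *Nxt1* arrays were 1.25-fold above the *aly* arrays (0.32, standard error 0.07, adjusted p = 3.25e-03), a small difference with no overlap between the arrays.

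The remaining 4 genes went the other way and were lower in *Nxt1* than in *aly* testes. *Mst84Db*, in the middle of the same cluster, read 4972, 4595 and 4100.5 on the *Nxt1* arrays, 11106, 11556.5 and 11425 on the *aly* arrays and 19950.3, 21020.1 and 20623 on the control arrays. It was 4.52-fold lower than control in *Nxt1* testes (log2 difference -2.18, standard error 0.08, adjusted p = 7.95e-09), but 1.81-fold lower in *aly* testes (-0.85, adjusted p = 7.30e-06). The *Nxt1* arrays held 40.0% of the level in *aly* testes (95% confidence interval 35.1% to 45.5%, log2 difference -1.32, adjusted p = 6.23e-07). *Mst98Ca*, from a second cluster, shared this pattern. It read 4894.5, 4836 and 4327 on the *Nxt1* arrays, 11821.5, 9173 and 10397.5 on the *aly* arrays and 22542, 22065 and 22279.9 on the control arrays, with no array out of order. It was 4.77-fold lower than control in *Nxt1* testes (-2.25, standard error 0.10, adjusted p = 2.18e-08) and 2.14-fold lower in *aly* testes (-1.10, adjusted p = 4.08e-06), and stood at 45.0% in *Nxt1* relative to *aly* testes (-1.15, adjusted p = 6.81e-06).

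*Mst84Da* and *Mst98Cb* had the same order of genotypes with smaller steps. *Mst84Da* read 9221.5, 8046 and 7828 on the *Nxt1* arrays, 11466, 12636 and 10749 on the *aly* arrays and 17533, 17925 and 17519 on the control arrays. Its level was 47.2% of control in *Nxt1* testes (log2 difference -1.08, adjusted p = 2.47e-06) and 65.6% in *aly* testes (-0.61, adjusted p = 1.81e-04), and *Nxt1* testes had 72.0% of the *aly* level (-0.47, standard error 0.09, adjusted p = 1.51e-03, but -0.11 and adjusted p = 3.47e-01 with *CG3927* centring). *Mst98Cb* read 7002, 7255 and 7241 on the *Nxt1* arrays, 9099, 8109 and 8688 on the *aly* arrays and 16018, 15758 and 15172 on the control arrays. Its level was 45.8% of control in *Nxt1* testes (-1.13, adjusted p = 3.26e-07) and 55.1% in *aly* testes (-0.86, adjusted p = 2.15e-06). The difference between the mutants was -0.27 for *Mst98Cb* (standard error 0.07, adjusted p = 1.05e-02), but -0.18 with ribosomal centring (adjusted p = 1.24e-01) and 0.09 with *CG3927* centring (adjusted p = 4.17e-01), so that its direction depends on the scale.

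**Figure D2:**
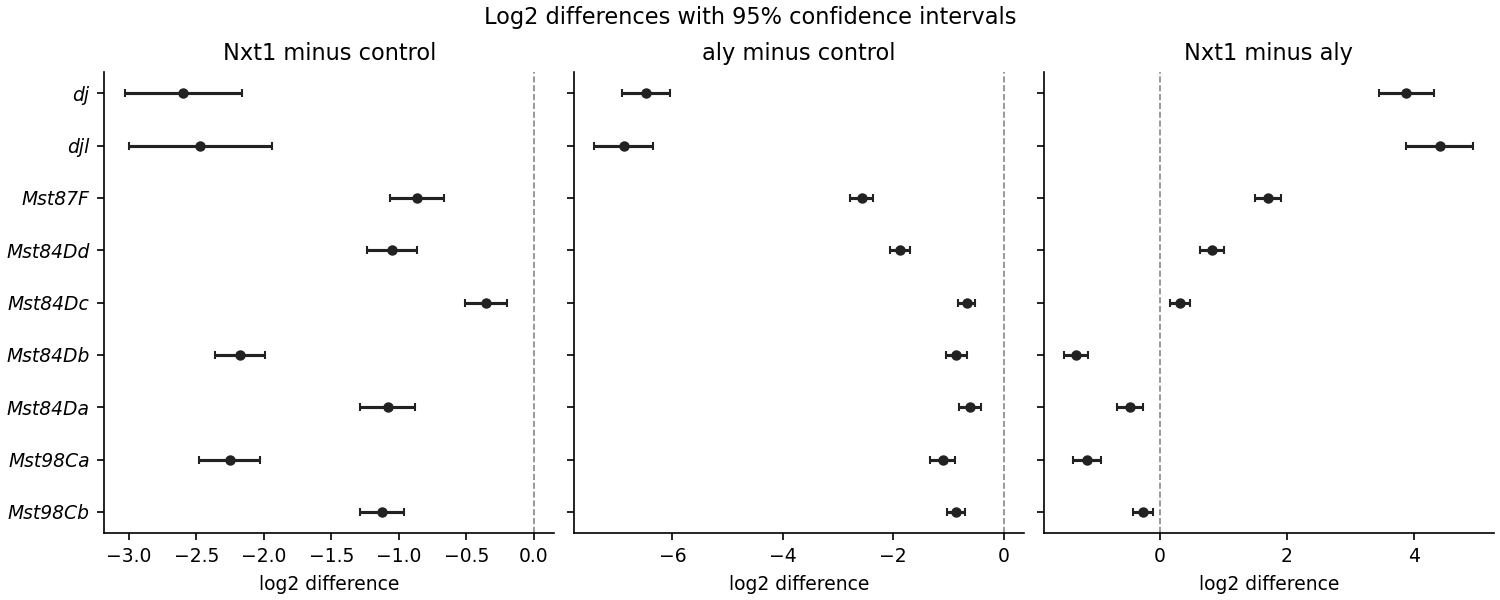
Log2 differences of the 9 genes in 3 comparisons (one panel each, horizontal axes of different width), with points for the limma estimates and bars for 95% confidence intervals. The intervals lie below 0 for every gene against control, and on both sides of 0 for *Nxt1* minus *aly*, from -1.32 for *Mst84Db* to 4.41 for *djl* (the sign of *Mst98Cb* turns with *CG3927* centring).

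In the direct comparison of the mutants 5 of the 9 genes were thus higher in *Nxt1* testes (*Mst84Dc*, *Mst84Dd*, *Mst87F*, *dj* and *djl*) and 4 lower (*Mst84Da*, *Mst84Db*, *Mst98Ca* and *Mst98Cb*, of which *Mst98Cb* changes sign and *Mst84Da* no longer passes with *CG3927* centring). Among all probe sets 20.6% passed as higher and 38.5% as lower, with a median of -0.18. On the deposited scale the share of the 9 genes that were lower is close to this background, and the share that were higher is above it. With *CG3927* centring the background was 37.1% higher and 13.4% lower, against 5 and 2 of the 9 genes. With ribosomal centring it was 22.6% higher and 27.8% lower, against 5 and 3 of the 9 genes. Both the background and the count of lower genes thus depend on the scale, and no difference from the background was tested. The arrays of the genotypes compared did not overlap for any of the 9 genes. A lack of overlap was itself common over all probe sets, at 32.1% for lower in *Nxt1* and 20.8% for lower in *aly* against control, and 22.0% for higher and 42.3% for lower in *Nxt1* against *aly* testes. Centring on *CG3927* moved every *Nxt1* minus *aly* difference up by 0.36 and ribosomal centring moved it up by 0.09. Against control, the same centrings moved every value down, by 0.78 and 1.13 in *Nxt1* and by 1.14 and 1.22 in *aly* testes.

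**Figure D3:**
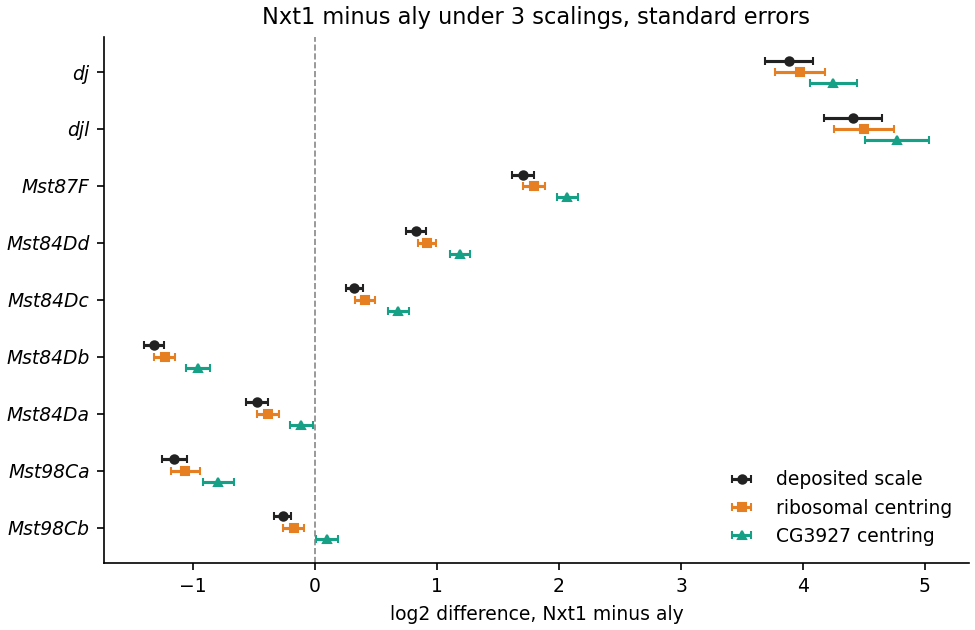
Log2 difference *Nxt1* minus *aly* of each gene on the deposited scale (circles), with ribosomal centring (squares) and with *CG3927* centring (triangles), with bars for standard errors. *dj*, *djl*, *Mst87F*, *Mst84Dd* and *Mst84Dc* stay above 0 and *Mst84Db*, *Mst98Ca* and *Mst84Da* below it on all 3 scales, whereas *Mst98Cb* passes from -0.27 to 0.09.

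Genes that lie side by side changed by different amounts in the Mst84D cluster. In the reference gene order the cluster runs *Mst84Dd*, *Mst84Dc*, *Mst84Db*, *Mst84Da* on chromosome arm 3R, and its 4 genes spanned 1.83 log2 units in *Nxt1* minus control and 1.27 in *aly* minus control. The ratio of 2 genes on the same array stays the same when all genes of that array are moved by the same amount, as with either centring. It can depend on the step that brought the arrays to a common distribution, and that was not tested. Since the size of the ratio also depends on the probes, only its change between genotypes was read. On this measure *Mst84Dc* over its neighbour *Mst84Db* changed by 1.83 log2 units (3.54-fold) between *Nxt1* and control testes. The log2 ratio was 1.87 to 2.02 on the *Nxt1* arrays, 0.28 to 0.34 on the *aly* arrays and 0.07 to 0.20 on the control arrays. The change was 0.18 between *aly* and control testes and 1.64 between *Nxt1* and *aly* testes. *Mst84Dd* over *Mst84Dc* instead changed most in *aly* testes, by -1.21, against -0.70 in *Nxt1* testes, both relative to control. *Mst84Db* over *Mst84Da* changed by -1.09 in *Nxt1* and by -0.25 in *aly* testes relative to control.

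The neighbours of the Mst98C pair also changed by different amounts, whereas for the don juan pair no difference was detectable with these arrays. *Mst98Ca* over *Mst98Cb* changed by -1.13 in *Nxt1* testes and by -0.24 in *aly* testes relative to control, and by -0.89 between *Nxt1* and *aly* testes. For *dj* over *djl* the changes were -0.13 in *Nxt1* and 0.40 in *aly* testes relative to control and -0.53 between the mutants, and the arrays of the genotypes overlapped in each case (exact permutation p = 0.3, 0.5 and 0.4, two-sided). Their log2 ratio ranged from -1.47 to 0.17 on the *aly* arrays, where both signals were dim, a spread wider than the change of *Mst98Ca* over *Mst98Cb* in *aly* testes. Over 5 neighbouring pairs and 3 comparisons 12 of 15 ratios had no overlap between genotypes. Each of these stood at the smallest p that an exact two-sided permutation test of 3 against 3 arrays allows (0.1), so that no ratio could pass 0.05 alone or after adjustment. How often ratios of other neighbouring genes lack overlap was not counted. For single probe sets it was common, at 42.3% for lower and 22.0% for higher in *Nxt1* against *aly* testes. Genes of 1 family resemble each other in sequence, and how much their probe sets share signal was not tested.

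**Figure D4:**
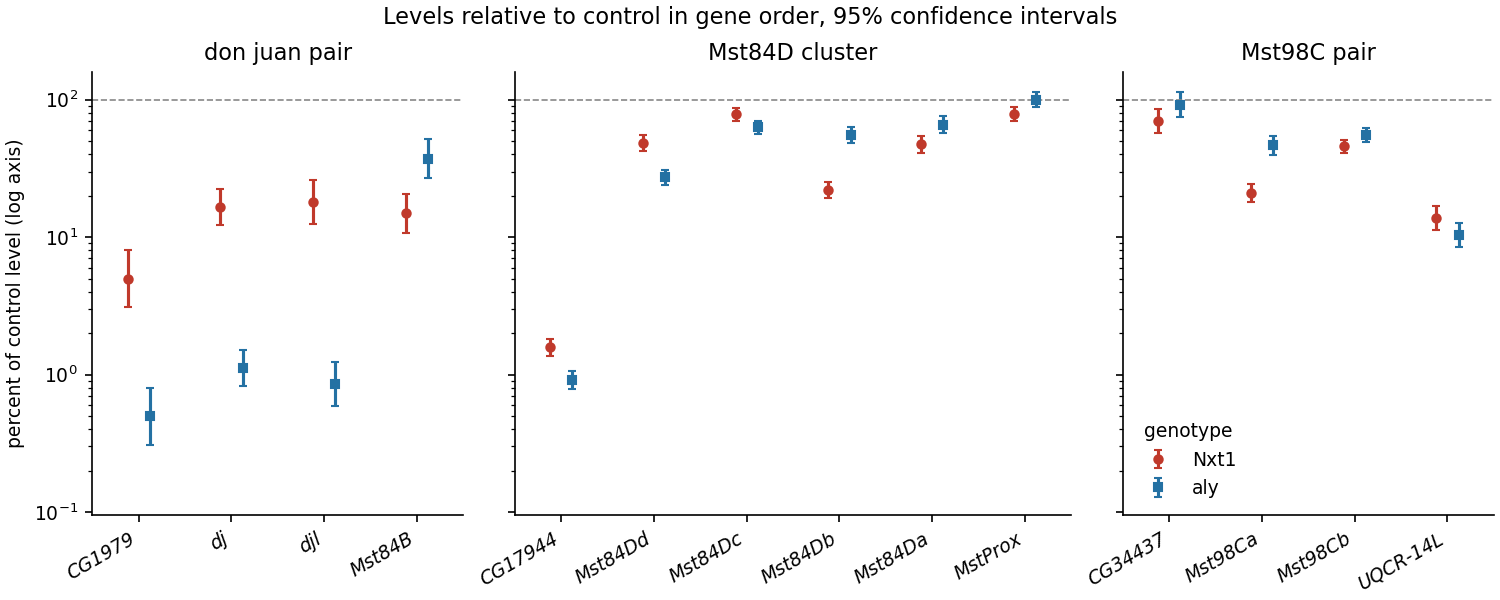
Level relative to control (percent, log axis, 100% dashed) of genes in reference order around the don juan pair, the Mst84D cluster and the Mst98C pair, with *Nxt1* (circles) left of *aly* (squares) and bars for 95% confidence intervals. Within the Mst84D cluster the order of the mutants turns between *Mst84Dc* and *Mst84Db*, and the outer neighbour *CG17944* is at 1.58% in *Nxt1* and 0.913% in *aly* testes.

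The genes that flank the clusters differed widely. *CG17944*, beside *Mst84Dd*, averaged 118 ± 14.8 in *Nxt1*, 68.1 ± 2.68 in *aly* and 7457 ± 175 in control testes (SD, n = 3 each), log2 differences of -5.99 and -6.78 from control for *Nxt1* and *aly* testes (adjusted p = 6.69e-11 and 1.96e-11). It lost far more signal in both mutants than the Mst84D genes next to it. *MstProx*, which overlaps *Mst84Da* and encodes a Toll-family receptor, averaged 36.7 ± 1.76 in *Nxt1*, 46.5 ± 0.63 in *aly* and 46.6 ± 3.19 in control testes. It fell by 0.34 on the log2 scale in *Nxt1* testes relative to control (adjusted p = 3.31e-03), and the *aly* minus control difference was 0.00 (adjusted p = 9.94e-01, but -1.22 with ribosomal centring). At the don juan pair, *CG1979* beside *dj* averaged 439 ± 91.8 in *Nxt1*, 47.0 ± 25.4 in *aly* and 8643 ± 238 in control testes, with log2 differences of -4.32 and -7.65 from control (adjusted p = 6.44e-07 and 5.93e-09). Like *dj* and *djl* it was lower in *aly* than in *Nxt1* testes. *Mst84B*, on the other side beside *djl*, averaged 1568 ± 184 in *Nxt1*, 4043 ± 1300 in *aly* and 10456 ± 298 in control testes. Its *Nxt1* minus *aly* difference of -1.32 (adjusted p = 5.06e-04, and -0.96 with *CG3927* centring) had the opposite sign to that of *djl*. Beside *Mst98Cb*, *UQCR-14L*, named for a subunit of respiratory complex III, averaged 765 ± 37.4 in *Nxt1*, 577 ± 107 in *aly* and 5522 ± 50.8 in control testes (log2 differences -2.85 and -3.28 from control). *CG34437*, beside *Mst98Ca*, was dim in all genotypes (17.3 to 29.7), and the neighbours of *Mst87F* had no probe set of a single symbol.

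Other genes of the spermatid programme were set beside the 9 genes. Of 9 other genes named Mst for male-specific transcript, 7 passed as lower in *Nxt1* and 7 as lower in *aly* testes relative to control, with medians of -1.48 and -4.11. None of the 9 in this list was lower in *Nxt1* than in *aly* testes and 7 were higher (median 2.65). The list does not hold the neighbours *Mst84B* and *MstProx*, which also carry the name and were lower in *Nxt1* than in *aly* testes (-1.32 and -0.34, adjusted p = 5.06e-04 and 3.90e-03, and for *MstProx* 0.02 with *CG3927* centring). The protamine genes *ProtA* and *ProtB*, whose products replace histones in sperm, were 3.37 and 4.71 log2 units higher in *Nxt1* than in *aly* testes (adjusted p = 2.03e-09 and 8.91e-09). Of the remaining genes, *Mst85C* rose in both mutants (1.57 in *Nxt1* and 1.85 in *aly* testes, and 0.44 and 0.63 with ribosomal centring), and *Mst36Fb* did not pass in any comparison.

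Of 15 other sperm tail and flagellum genes, 10 passed as lower in *Nxt1* testes (median -0.69, but -1.82 with ribosomal and -1.46 with *CG3927* centring, where all 15 values were below 0) and all 15 in *aly* testes (median -5.07). In *Nxt1* relative to *aly* testes 13 of these 15 were higher and none lower, with a median of 2.26, against 5 higher and 4 lower of the tail genes studied here. *Tektin-C*, a filament protein of the flagellum, differed by 0.01 between *Nxt1* and control testes (adjusted p = 9.42e-01, but -1.12 with ribosomal centring) and fell by 5.14 in *aly* testes (adjusted p = 1.24e-10). *Rsph3*, a radial spoke protein, had values of 0.08 in *Nxt1* testes (adjusted p = 7.10e-01, and -1.05 with ribosomal centring) and -5.32 in *aly* testes (adjusted p = 9.20e-10). The list was not uniform. *Bug22*, *hydra* and *betaTub85D* differed by -0.28, -1.88 and -2.23 in *aly* testes, less than *Mst87F* at -2.57. In *Nxt1* testes *Pif2*, *lobo*, *Tektin-A*, *wam* and *Pif1A* differed by -6.19, -5.71, -4.29, -4.22 and -3.16, more than any of the 9 genes. The rest of the list differed less in *Nxt1* testes than *dj* at -2.59. The lists were compared by counts and medians and no difference between them was tested.

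**Figure D5:**
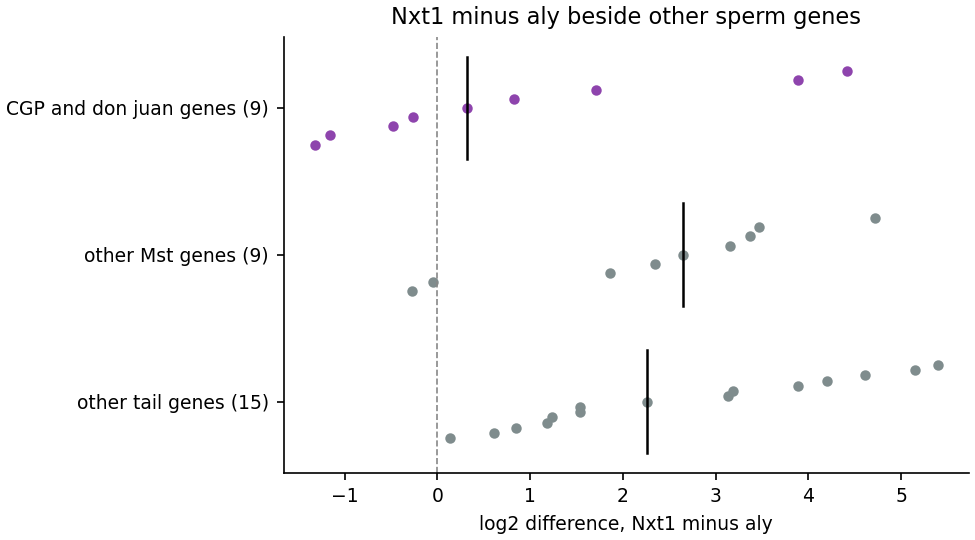
Log2 difference *Nxt1* minus *aly* of the 9 CGP and don juan genes and of 2 lists of other sperm genes, 1 point per gene, with bars for the list medians (0.32, 2.65 and 2.26). Points below 0 are 4 of the 9 genes (*Mst98Cb* among them, which turns to 0.09 with *CG3927* centring) and 2 other Mst genes that did not pass the test.

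Regulators of translation were measured too, because the mRNAs of these genes are stored. Of 5 such genes, 2 were lower and 2 higher in *Nxt1* testes, and 3 were lower in *aly* testes, relative to control. *bol*, which encodes an RNA-binding protein needed for the meiotic divisions, fell by 2.46 in *Nxt1* testes (adjusted p = 2.21e-07) and by 3.63 in *aly* testes (adjusted p = 7.97e-09). *orb2*, a cytoplasmic polyadenylation factor, fell by 1.83 in *Nxt1* testes and fell by 1.94 in *aly* testes (adjusted p = 3.75e-07 and 1.77e-07). *eIF4G2*, a testis form of a translation initiation factor, fell by 1.43 in *aly* testes (adjusted p = 1.81e-03), and its value in *Nxt1* testes was -0.43 (adjusted p = 2.52e-01). *orb* and *eIF4E3* were the 2 that were higher in *Nxt1* testes (0.84 and 0.36, but -0.29 and -0.76 with ribosomal centring). The *orb* signal was dim, with a mean log2 intensity of 5.20 in *Nxt1*, 4.67 in *aly* and 4.36 in control testes.

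The 5 genes whose values over the 9 arrays lay nearest to the median profile of the sperm tail genes were *Afg3l2*, *eIF4E5*, *Pgm2a*, *Alp6* and *Ugt303B1*, with root mean square distances of 0.08 to 0.12 log2 units. *Afg3l2*, a mitochondrial protease subunit, read 3097, 3215 and 2969.5 on the *Nxt1* arrays, 3133, 2917 and 2947 on the *aly* arrays and 6642.5, 6406 and 6359 on the control arrays. *eIF4E5*, a cap-binding protein, read 5589, 5529 and 5320.3 on the *Nxt1* arrays, 5699, 4829 and 5190.3 on the *aly* arrays and 12584, 12490.0 and 12063 on the control arrays. Both stood at about the same level in the mutants, like the median profile of the 9 genes, which follows from how they were chosen. *Alp6* and *Ugt303B1* were dim, below 80 on every array. Among the tail genes themselves *Mst98Cb* lay nearest to the median profile (0.15) and *djl* farthest (3.43). The other CGP genes lay between 0.32 (*Mst84Da*) and 0.88 (*Mst87F*), all farther than the 5 genes named here, so the median profile is not that of any single member.

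The makeup of the samples differed along with these genes. All 13 measured comet and cup genes, which are transcribed in spermatids, were lower in both mutants than in control testes, and their summed signal was 16244 to 17964 on the *Nxt1* arrays, 11434 to 12663 on the *aly* arrays and 91058 to 91609 on the control arrays. Of 9 measured genes that primary spermatocytes transcribe without tMAC, 7 were higher in *Nxt1* and 8 higher in *aly* testes than in control (medians 0.94 and 2.31, but -0.19 and 1.09 with ribosomal centring). In *Nxt1* relative to *aly* testes 8 were lower (median -0.78, but -0.41 with *CG3927* centring, where 6 values were below 0). These genes include *aly* itself, the only one lower in *aly* testes than in control (-0.89) and the only one higher in *Nxt1* than in *aly* testes (2.78). The summed signal of these 9 was 23368 to 23920 on the *Nxt1* arrays, 45995 to 47834 on the *aly* arrays and 12829 to 13576 on the control arrays. Genes of the accessory gland, an organ to be removed at dissection, summed over 12 genes to 46908 to 145016 on the *Nxt1* arrays, 39186 to 94943 on the *aly* arrays and 1281 to 32420 on the control arrays, and were lowest on control replicate 1. Of these 12 genes 6 passed as higher in *Nxt1* and 4 in *aly* testes, where 34.1% and 44.0% of all probe sets did. The counts in the other cell lists lay on both sides of that background and depended on the scale. Of 5 early germline genes 3 were higher and 2 lower in *Nxt1* testes and 4 higher in *aly* testes, but 4 and 3 of the 5 values were below 0 with either centring. Of 5 cyst and hub cell genes 3 were higher and 1 lower in *Nxt1* testes and 2 higher in *aly* testes, but 4 and 5 values were below 0 with either centring. Of 3 sheath muscle genes 2 were higher in each mutant, but all 3 values were below 0 in each mutant with either centring. Of 3 ejaculatory duct and bulb genes 1 was higher in each mutant. The part of each of these in the differences of the tail genes was not tested. Leaving out control replicate 1, or any other single array, changed neither the direction nor the call of any of the 9 genes. On the control arrays the Mst(3)CGP genes read 15172 to 22926, where the brightest probe set of an array read 28868 to 37025, and whether the array scale is compressed at such signals was not tested.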

How the data were processed

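Testis RNA of 3 genotypes was measured on 9 arrays. The authors made the deposited intensities with GCOS and RMA (versions not given in the sources used here), on a linear scale. The array annotation names no genome build, so the reference gene table served for names and gene order only, with no coordinates. Of 18952 probe sets 183 controls were left out. Of the other 18769, 13646 carry 1 gene symbol, 402 several and 4721 none, and no probe set of several symbols holds one of the 9 genes.

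The log2 of each intensity was taken with nothing added. limma 3.58.1 (lmFit, eBayes) in R 4.3.3 was fitted to all 9 arrays with 1 mean per genotype, with Benjamini-Hochberg adjusted p-values (over all 18769 probe sets) and a threshold of 0.05. Confidence intervals are 95%. Levels are means and SDs of 3 intensities. The script was tested on simulated data. Ratios of neighbouring genes were compared with exact permutation tests (scipy 1.17.1). Tables and figures were made with Python 3.11.15, pandas 2.3.3, numpy 2.4.6 and matplotlib 3.10.9.

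The alternatives tried were arrays centred on the median of 47 probe sets for ribosomal proteins, arrays centred on *CG3927*, removal of dim probe sets, eBayes with trend and robust, a fit on only the arrays compared, a replicate block, each array left out and the dimmest probe set of a gene. The genes, lists and alternatives were chosen with earlier results of these data known. Named are the 9 genes, their neighbours, the 5 genes nearest to their median profile (smallest root mean square difference of log2 values centred on the control mean) and list genes on which a count turns, with examples. Lists of early germline, cyst and hub, sheath muscle, and ejaculatory duct genes were counted too. Protein and promoter sequences were not analysed here.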

Additional observations from a re-analysis of the deposited data

How the results depend on the processing

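The counts of sperm tail genes lower than control were 9 in *Nxt1* and 9 in *aly* testes under every alternative run. The centrings moved every difference from control down, so they could not turn these directions. Of 405 values of single genes under the alternatives 402 kept their direction and their side of the threshold, and none of the 243 that left out 1 array changed. Many of these values could not change direction. The estimate stays the same without dim probe sets, with eBayes trend and robust, with only the arrays compared and with the replicate block. It also stays the same when the array left out is of the genotype outside the comparison. In such fits only the call could change. The 3 that changed all concern *Nxt1* minus *aly*. With *CG3927* centring *Mst98Cb* reversed to 0.0946 (adjusted p = 4.17e-01) and *Mst84Da* stood at -0.11 (adjusted p = 3.47e-01), so that 2 of the 9 genes were lower in *Nxt1* than in *aly* testes, against 4 on the deposited scale. With ribosomal centring *Mst98Cb* stood at -0.18 (adjusted p = 1.24e-01). Each centring moves all genes of an array by 1 constant, so it shifted the median of the 9 genes to -2.26 (ribosomal) and -1.90 (*CG3927*) in *Nxt1* minus control and to -2.32 and -2.24 in *aly* minus control, and the median of all probe sets to -1.14 and -0.79, and to -1.01 and -0.93. In *Nxt1* minus *aly*, 7225 probe sets were lower and 3875 higher on the deposited scale, 2513 and 6956 with *CG3927* centring, 5209 and 4246 with ribosomal centring, and 4044 and 3432 of 10398 without dim probe sets. Same-numbered arrays did not deviate together (r = -0.23 to 0.35 over 9 pairs, 3 of them over 0.1, against -0.35 to 0.28 for different numbers), so the labels' numbers are not taken to pair the samples, and with the replicate block the counts were again 9 lower, 9 lower, and 5 higher and 4 lower. Each of the 9 genes has 1 probe set, so the choice of probe set could not be varied.

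In the other lists, the signal of 3 ejaculatory duct and bulb genes on *Nxt1* replicate 1 stood apart (median log2 13.73, against 4.51 and 4.67 on the other *Nxt1* arrays), and leaving that array out changed no call of the 9 genes. With 3 arrays a genotype, no detection calls and control signals near the top of the scale, the size of a fold change is less certain than its direction.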
